A study of Sus scrofa with 48 samples.

Results

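Receptors and first relays of insulin, insulin-like growth factor (IGF), growth hormone and adipokine signalling were examined in the whole blood of pigs, together with the mitochondrial carrier gene UCP2. The 10 genes, chosen by name, were INSR, IGF1R, IGF2R, IRS1, IRS2, GHR, LEPR, ADIPOR1, ADIPOR2 and UCP2. A spot of the array was taken for a gene when its gene name, in upper case, equalled the symbol. This gave 30 of the 60306 non-control spots, for 9 of the 10 genes, and no spot was named IRS2. The authors retained 37113 spots in their normalized table. Of the 30 spots, 15 were in it, and they measured 7 genes, namely IGF1R, IGF2R, IRS1, GHR, ADIPOR1, ADIPOR2 and UCP2.

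All 48 pigs were castrated males of the French Large White breed, sampled at 132 days of age, and all came from the eighth generation of a selection on residual feed intake (RFI), the part of feed intake that growth and maintenance do not account for. The low RFI line is the more efficient one, and each line counted 24 pigs. Within each line, 12 pigs received a diet low in fat and fiber (LF) and 12 a diet high in both (HF), in which wheat straw and a mixture of plant oils replaced part of the cereals at equal protein and energy. The 4 groups were thus low RFI LF, low RFI HF, high RFI LF and high RFI HF, with 1 single-colour array per pig. Blood was collected at slaughter, 2 h after a meal.

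Insulin and the IGFs act through receptor tyrosine kinases, which phosphorylate docking proteins such as IRS1 and IRS2 and so switch on the PI3-kinase and AKT cascade. Growth hormone and leptin act through cytokine-type receptors that signal by JAK kinases and STAT factors, and adiponectin acts through the seven-pass membrane proteins ADIPOR1 and ADIPOR2. In blood, leukocytes use these pathways to adjust glucose uptake and proliferation, and immature red cells keep part of the transcripts of their precursors until they lose their RNA.

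In these pigs, none of the measured members passed the test for a line, diet or interaction effect after correction for all the genes tested. Individual pigs of one group differed more than the group means did. ADIPOR1, GHR, ADIPOR2 and UCP2 varied together over the pigs. They varied with the mean of the red cell markers. They varied against the mean of a leukocyte list, though not against each list of a leukocyte type. They also varied with the mean of an adipose, liver and muscle list, whose members went both ways.

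The probes of the array are 60-base oligonucleotides. The scanner files list these probes without a mapped position and name no genome build, so that the place of each probe in its gene is not given here. The sequences below are those on which the reading of the values depends, as written in the scanner files, 5′ to 3′. Spot A_72_P077761 of ADIPOR1 is shown because a further spot, named by a GenBank number, carried the same bases. Spot O11193 is the probe on which the statement on INSR rests.
ADIPOR1 A_72_P077761: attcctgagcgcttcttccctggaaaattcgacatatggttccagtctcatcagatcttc
INSR O11193: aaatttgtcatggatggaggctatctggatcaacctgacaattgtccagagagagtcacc

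Neighbouring probes of a gene can share bases, in which case they are not independent readings of it. Capitals mark the bases that the spots of a pair share, which were 28 for the retained pair of IGF2R and 55 for a pair of ADIPOR2 of which A_72_P440141 was in the normalized table and A_72_P302919 was outside it.
IGF2R A_72_P490952: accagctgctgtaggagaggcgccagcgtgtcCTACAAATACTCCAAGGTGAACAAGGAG
IGF2R A_72_P445023: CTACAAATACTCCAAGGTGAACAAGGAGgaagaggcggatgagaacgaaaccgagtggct
ADIPOR2 A_72_P440141: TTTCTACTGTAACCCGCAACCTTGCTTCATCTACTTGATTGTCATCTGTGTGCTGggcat
ADIPOR2 A_72_P302919: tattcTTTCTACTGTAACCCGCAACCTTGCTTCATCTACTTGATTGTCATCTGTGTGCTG

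Both retained spots of UCP2, O6507 and A_72_P165336, shared the 22 bases ATCAGCCAGGATCTCAAGTCCT, at the end of the former and the start of the latter. For spots whose place in the transcript is unknown, the first 30 bases are given. They include the ADIPOR2 spot A_72_P081001, which was opposed to the other three over the pigs and is shown beside O13159 from among these, the single retained spot of GHR, and the single spot of LEPR, which was the only one of the 30 without an open reading frame in the forward direction.
ADIPOR2 O13159: gtggccttttcagtattgtcccccttcccc
ADIPOR2 A_72_P081001: ttccccatgggatttccctacttgctgtgt
GHR A_72_P585071: gcacctgaagaaaacaagttagttttttac
LEPR A_72_P302834: gactaacacttgtgaaatgtaatgtcttca

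Detection was read from the scanner software, which calls a spot well above background when its signal clearly exceeds the local background. Of the 15 retained spots, 13 were called so on all 48 arrays. The other two were the overlapping IGF2R spots A_72_P445023 and A_72_P490952, called on 45 and 46 arrays. UCP2, a mitochondrial carrier of leukocytes and other cells, gave the brightest of these spots, with a median signal over local background of 1656 for A_72_P165336 and 720 for O6507. The retained spots of ADIPOR1 lay between 39.3 and 275 times the background. Those of GHR, IRS1 and IGF1R were dim, at 2.79, 3.36 and 3.92 times the background. The overlapping IGF2R spots were dimmer still, at 1.95 and 2.01 times.

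Among the 15 spots outside the table, 2 were well above background on every array, 10 on some arrays and 3 on none. These were spots of genes that the table otherwise measured, apart from INSR and LEPR. The insulin receptor gene INSR had a single spot. It was well above background on 1 of 48 arrays, that of a low RFI HF pig, with a median signal of 40.0 units against a background of 31.0. The leptin receptor gene LEPR also had a single spot, which was well above background on 0 of 48 arrays, with a median signal of 32.25 units against 36.0. By the less strict call of the scanner software, a signal positive and significant against the background, the INSR spot was detected on 28 of 48 arrays and the LEPR spot on 5. Both genes had no normalized value, and the INSR signals lay too near the background for a comparison of groups. The presence or absence of these transcripts in blood cannot be stated.

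The additional spots gave weak signals for most genes. GHR had 5 such spots, which were well above background on 28, 14, 4, 2 and 0 arrays. The spot with 28 arrays, A_72_P060151, was called in 8 of 12 low RFI and 6 of 12 high RFI pigs with either diet, so that its detection was spread over the groups. IRS1 had 3 further spots, called on 11, 5 and 2 arrays, and IGF1R had 2, called on 19 arrays and on none. For IGF2R, spots A_72_P704524 and A_72_P444408 were called on 48 and 47 arrays. The signal of A_72_P444408 had a median of 78 units and reached 23205 units on 1 array, and no normalized value exists for it.

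**Figure D1:**
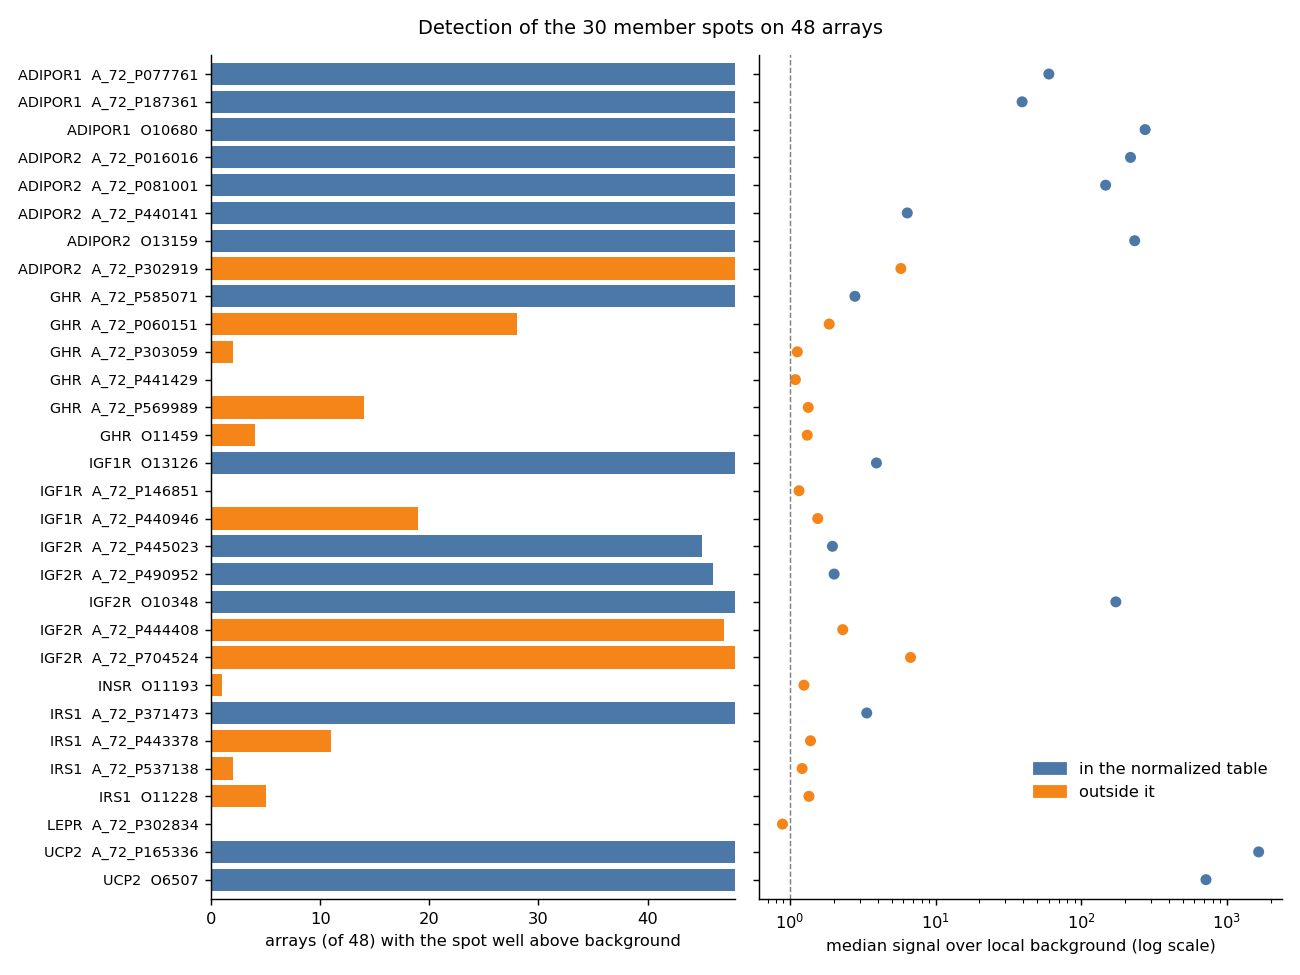
Number of the 48 arrays on which each of the 30 spots was well above background (left, bars) and the median ratio of signal to local background on a logarithmic axis (right, points, dashed line at 1), with spots of the normalized table in blue and others in orange. The spots of ADIPOR1, UCP2 and most of those of ADIPOR2 stand far above background, whereas INSR, with 1 array, and LEPR, with 0, stay near a ratio of 1.

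The normalized values are log2 intensities relative to the median of each array, so that 0 is the median retained spot. Where a gene had several retained spots, they were averaged. Levels of different genes depend on their probes and were not compared with each other.

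For the receptors of insulin-like growth factors, the groups overlapped. IGF1R, the tyrosine kinase receptor of IGF1, was measured by 1 retained spot. In the low RFI line its values ran from -2.24 over a median of -1.70 to -1.29 with the LF diet (mean -1.73 ± 0.24, SD, n = 12) and from -1.95 over -1.65 to -1.25 with the HF diet (-1.61 ± 0.23, SD, n = 12). In the high RFI line they ran from -2.27 over -1.85 to -1.25 with the LF diet (-1.77 ± 0.28, SD, n = 12) and from -1.95 over -1.64 to -0.70 with the HF diet (-1.59 ± 0.32, SD, n = 12). In both lines the mean was thus higher with the HF diet, by 0.15 (SE 0.078) on the log2 scale, an FC of 1.11 with a 95% interval of 0.998 to 1.24. This was the lowest P-value of the diet comparison among the 7 genes, at 0.055 before and 0.9999 after correction over 26924 gene names with limma, and 16 of 24 HF pigs lay above the LF median. The difference between lines was 0.0070 (SE 0.078), which was less than the spread between pigs.

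IGF2R, the receptor that clears IGF2 and sorts lysosomal enzymes, was measured by 3 retained spots. With the LF diet its mean was -0.35 ± 0.15 in the low and -0.37 ± 0.18 in the high RFI line, and with the HF diet -0.43 ± 0.14 in the low and -0.30 ± 0.11 in the high RFI line (SD, n = 12 each). The values of low RFI HF pigs extended from -0.62 to -0.21 and those of high RFI HF pigs from -0.57 to -0.13, and the ranges overlapped over most of their length. With the HF diet the low RFI line was 0.13 (SE 0.064) lower on the log2 scale, with an unadjusted P-value of 0.049 and an adjusted P-value of 0.595 in limma. With the LF diet it was 0.020 (SE 0.064) higher, and the test of the interaction itself gave a P-value of 0.106 and an adjusted P-value of 0.892. The overlapping pair moved together loosely, with r = 0.34 over the 48 pigs. These dim spots did not move with the bright spot O10348, with r of 0.099 and -0.053. The line difference of O10348 alone was -0.13 (SE 0.089, adjusted P-value 0.677). The mean of the 3 spots therefore mixes readings of unequal quality.

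Of the docking proteins, IRS1 was measured by 1 dim spot. Low RFI pigs had values from -2.27 over a median of -2.11 to -1.46 on the LF diet and from -2.27 over -1.83 to -1.21 on the HF diet. High RFI pigs had values from -2.45 over -1.86 to -1.33 on the LF diet and from -2.27 over -1.79 to -1.41 on the HF diet. The low RFI LF median was the lowest of the groups, but the ranges overlapped. The lines differed by -0.11 (SE 0.089, adjusted P-value 0.816) and the diets by 0.10 (SE 0.089, adjusted P-value 0.9999). A spot that the array description likens to mouse IRS2, TC548228, lies outside the choice by gene name and was looked up after the values were seen. Its mean was -0.57 ± 0.32 on the LF and -0.68 ± 0.38 on the HF diet for the low RFI line, and -0.86 ± 0.43 and -0.69 ± 0.31 for the high RFI line (SD, n = 12 each), with a line difference of 0.15 (SE 0.10, adjusted P-value 0.733).

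GHR, the receptor of growth hormone, which drives IGF1 synthesis in the liver, had 1 retained spot among its 6. For the low RFI line its values spanned -2.81 to -1.03 with a median of -1.87 on the LF diet, and -2.84 to -1.16 with a median of -1.99 on the HF diet. For the high RFI line they spanned -2.86 to -1.39 with a median of -1.98 on the LF diet, and -2.58 to -0.84 with a median of -1.85 on the HF diet. The ranges of the 4 groups thus overlapped. The means were ordered high RFI HF, low RFI LF, low RFI HF and high RFI LF, from -1.82 ± 0.57 to -2.07 ± 0.50 (SD, n = 12 each), and neighbours in this order did not differ beyond their spread. The line difference was 0.027 (SE 0.15), the diet difference 0.059 (SE 0.15) and the interaction -0.37 (SE 0.29), with an adjusted P-value of 0.892 for the latter.

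The adiponectin receptors ADIPOR1 and ADIPOR2 were measured by 3 and 4 retained spots. ADIPOR1, which is linked with AMP-activated kinase, ran in low RFI pigs from 1.96 over a median of 2.95 to 3.58 with the LF diet and from 2.30 over 2.87 to 4.04 with the HF diet. In high RFI pigs it ran from 1.90 over 3.01 to 3.85 with the LF diet and from 2.60 over 3.15 to 3.86 with the HF diet. The lowest value of high RFI HF pigs was above that of the other groups, and the ranges overlapped. The means were 3.02 ± 0.45, 2.95 ± 0.58, 2.89 ± 0.62 and 3.17 ± 0.42 (SD, n = 12 each) in the same order. The line difference was -0.049 (SE 0.15), with a 95% interval of the FC from 0.787 to 1.19, and 11 of 24 low RFI pigs lay above the median of the high RFI line.

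ADIPOR2, which is linked with fatty acid oxidation through PPARα, varied less when its spots were averaged. Its means on the LF and HF diets were 3.01 ± 0.15 and 2.99 ± 0.17 for low RFI pigs, and 2.94 ± 0.15 and 2.93 ± 0.15 for high RFI pigs (SD, n = 12 each). With the lowest line P-value among the genes, 0.164 before and 0.741 after correction, its line difference was 0.066 (SE 0.047), an FC of 1.047 with a 95% interval of 0.981 to 1.12. Its spots did not behave alike, since A_72_P081001 correlated negatively with the other three, with r from -0.40 to -0.31, and the latter correlated positively with each other, with r from 0.54 to 0.96. The r of 0.96 is that of O13159 and A_72_P016016, which carry the same bases and are not independent readings. The line differences of the 4 spots were nevertheless close, from 0.051 to 0.085.

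UCP2, which limits the mitochondrial membrane potential and production of reactive oxygen species, and which fatty acids induce, was measured by 2 overlapping spots. On the LF diet it ran from 5.89 over a median of 6.73 to 7.19 in the low RFI line and from 5.93 over 6.64 to 6.93 in the high RFI line. On the HF diet it ran from 5.96 over 6.84 to 7.46 in the low RFI line and from 6.11 over 6.71 to 7.15 in the high RFI line. The highest pig was of the low RFI HF group and the lowest of the low RFI LF group, so that the low RFI line held both ends of the range. The line difference of 0.15 (SE 0.11) was the largest of the 7 genes in size, an FC of 1.11 with a 95% interval of 0.956 to 1.29, and its adjusted P-value was 0.746. The spot O6507 alone had 0.21 (SE 0.12, adjusted P-value 0.512), and the spot A_72_P165336 had 0.084 (SE 0.10, adjusted P-value 0.910). The diet difference of UCP2 was 0.090 (SE 0.11).

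**Figure D2:**
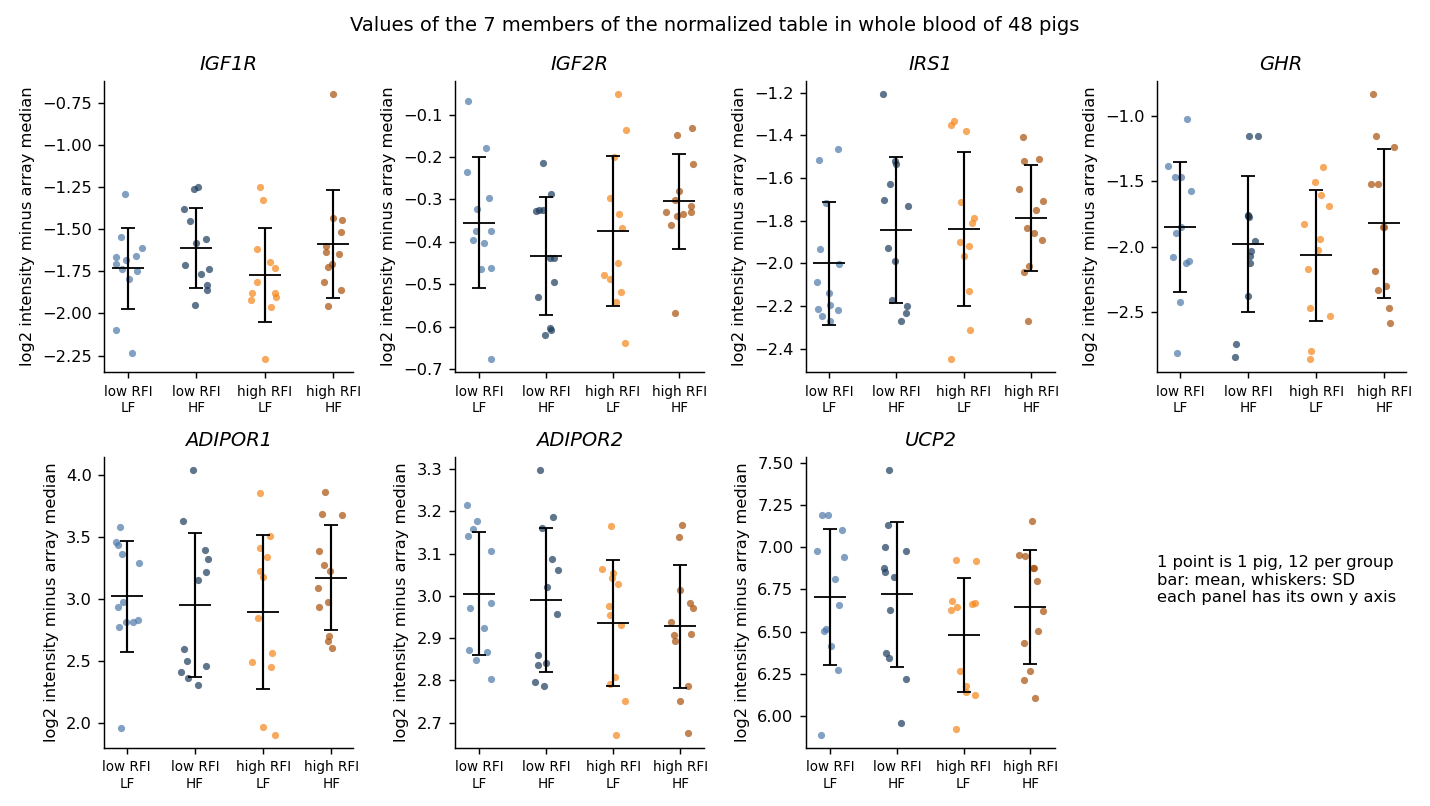
Log2 intensity relative to the array median of the 7 genes in each pig (points, 12 per group), with the mean (bar) and SD (whiskers) of each line and diet group. The 4 groups overlap in every panel, and the spread within a group is wide for GHR and ADIPOR1 and narrow for IGF2R and ADIPOR2.

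Between low and high RFI pigs, 0 of the 7 genes passed an adjusted P-value of 0.05 in limma, where 2.73% of the 26924 gene names did, with 1.3% higher and 1.43% lower in the low RFI line. With so few members, a share of 0 does not stand apart from this background. Without correction, 0 of 7 were under a P-value of 0.05, where 11.5% of the gene names were. Over the 15 spots the count was 0 as well, where 2.77% of the 37113 spots passed, and the lowest unadjusted P-value was 0.075. Between the diets 0 of 7 genes passed, where 0% of all gene names did, and 0 of 7 had an uncorrected P-value under 0.05, where 433 gene names (1.61%) had. For the interaction 0 of 7 passed, where again 0% of all did, and 0 of 7 had an uncorrected P-value under 0.05, where 606 gene names (2.25%) had. Within the HF diet the share of all gene names past the threshold for line was 0.717% and within the LF diet 0.457%, with 0 of 7 in both, and IGF2R was the 1 gene with an uncorrected P-value under 0.05 within the HF diet, where 8.38% of the gene names were. Within either line, 0 of 7 genes and 0% of all gene names passed for diet. When calls were made as in the methods, at a raw P-value under 0.01 with an FC above 1.1, 0 of 7 genes differed for line, diet or interaction, where 5.56%, 0.208% and 0.223% of the gene names did. The analysis of variance, and the model with slide as a block, also called 0 of 7 for each effect after correction. Within slides the signs were mixed, because the line difference was positive on 2 to 4 of the 6 slides for each of the 7 genes. The diet difference of IGF1R was positive on 5 of the 6 slides, from -0.0043 to 0.31.

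The 95% intervals give the precision of these estimates. For the line effect they reached from -0.34 to 0.36 on the log2 scale over the 7 genes, and for the diet effect from -0.23 to 0.40. The interaction was estimated less precisely, with intervals that reached from -0.96 to 0.47.

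**Figure D3:**
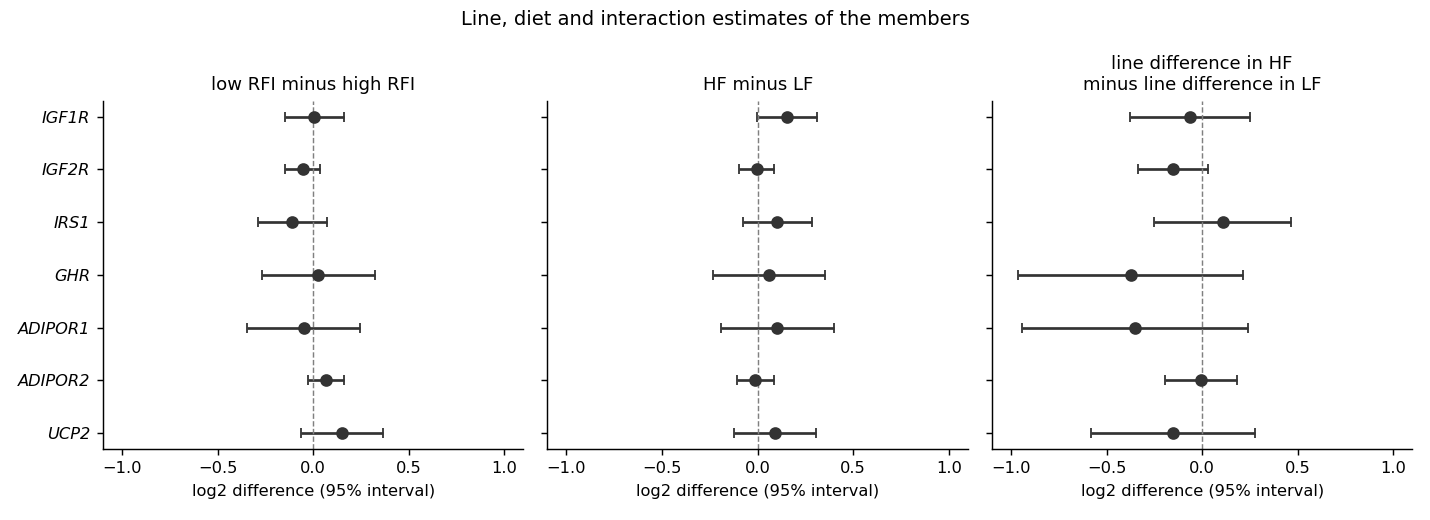
Estimates (points) and 95% intervals (bars) of the line difference, the diet difference and the interaction for the 7 genes, on the log2 scale, with a dashed line at 0. Every interval of these 3 comparisons includes 0, and the intervals of ADIPOR2 and IGF2R are the narrowest.

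The spread between pigs of one group differed between the genes. The within-group SD was 0.525 for ADIPOR1 and 0.523 for GHR, above that of 90.8% and 90.6% of all gene names, followed by UCP2 with 0.378. It was 0.313 for IRS1 and 0.271 for IGF1R, near the median of all gene names of 0.264. For ADIPOR2 and IGF2R it was 0.153 and 0.148, which only 5.04% and 4.09% of the gene names undercut. These are means of spots that do not move alike. For IGF2R, O10348 had r of 0.099 and -0.053 with the overlapping spots, and for ADIPOR2 the spot A_72_P081001 was opposed to the others. Single spots varied more, with 0.313 for O10348 of IGF2R and 0.274 for A_72_P016016 of ADIPOR2. Between the lowest and the highest pig, without background subtraction, ADIPOR1 differed 4.40-fold, GHR 4.06-fold and UCP2 2.96-fold. The spot of GHR was dim, so that its fold depends on the background.

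Spots of identical sequence give the technical error of the array. Spot A_72_P077761 of ADIPOR1 and its twin named by a GenBank number correlated with r = 0.985 over the 48 arrays, and the SD of their difference was 0.096 against a within-group SD between pigs of 0.571. The twins O13159 and A_72_P016016 of ADIPOR2 gave r = 0.961 and an SD of the difference of 0.075 against 0.274. For A_72_P165336 of UCP2 and its twin these values were 0.967, 0.095 and 0.357. For O10348 of IGF2R and its twin they were 0.903, 0.134 and 0.313. The SD between pigs thus exceeded that of the difference between spots of one array for each of these pairs, and variation between extractions or labellings of the same blood was not tested.

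Over the 48 pigs, 21 pairs of the 7 genes were compared, and 10 had a P-value under 0.05 after Benjamini and Hochberg correction over these pairs, 7 positive and 3 negative. The genes of one tissue sample share its RNA and its array. GHR, ADIPOR1, ADIPOR2 and UCP2 formed a block in which each of the 6 pairs was positive on each of the 6 slides. The ADIPOR2 value is a mean that includes the opposed spot A_72_P081001, so that its relations need not hold for each of its spots. With the brightest spot of each gene, r of ADIPOR2 was 0.811 with UCP2, 0.648 with GHR and 0.568 with ADIPOR1. The closest pair was ADIPOR2 with UCP2, with Pearson's r = 0.789 and Spearman's rho = 0.793. Its permutation P-value of 1e-05, the smallest that 100000 permutations can give, was 5.25e-05 after correction. Without the 2 pigs farthest from the ADIPOR2 median r was 0.754, and within slides it ran from 0.463 to 0.900.

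GHR with ADIPOR1 had r = 0.757 and rho = 0.749, with the same permutation P-value of 1e-05 and 5.25e-05 after correction. Its r was 0.754 without the 2 farthest pigs and ran from 0.821 to 0.961 within slides. ADIPOR1 with UCP2 had r = 0.672 (rho = 0.662, within slides 0.388 to 0.960) and ADIPOR1 with ADIPOR2 r = 0.643 (rho = 0.676, within slides 0.381 to 0.855), again with P-values of 1e-05 and, after correction, 5.25e-05. Without the 2 pigs farthest from the ADIPOR1 median they were 0.631 and 0.623. These genes thus kept their relation from slide to slide.

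GHR correlated less closely with ADIPOR2, with r = 0.560 (rho = 0.564, permutation P-value 5e-05, corrected 0.00021), and with UCP2, with r = 0.462 (rho = 0.431, permutation P-value 0.00079, corrected 0.00237). Without the 2 pigs farthest from the GHR median these were 0.575 and 0.488, and the within-slide values ran from 0.194 to 0.872 and from 0.431 to 0.994. IGF2R was opposed to ADIPOR2, with r = -0.503 (rho = -0.517, permutation P-value 0.00029, corrected 0.00102), and the relation was negative on each of the 6 slides, from -0.829 to -0.224, and -0.559 without the 2 farthest pigs. The brightest spot of each gene gave -0.632 for this pair and, with the same rule, -0.656 for IGF2R with GHR (corrected 4.2e-05). With the means of the spots, IGF2R was also negative with GHR (r = -0.384, rho = -0.401, permutation P-value 0.00792, corrected 0.0208) and with UCP2 (r = -0.357, rho = -0.348, permutation P-value 0.0123, corrected 0.0288). Without the 2 farthest pigs they were -0.414 and -0.423. Within slides the former ran from -0.687 to 0.225, and the latter from -0.744 to -0.229.

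IGF1R and IRS1, both dim and both of the tyrosine kinase branch, correlated with r = 0.347 (rho = 0.296, permutation P-value 0.0149, corrected 0.0312), which was 0.323 without the 2 farthest pigs. Within slides it ran from -0.15 to 0.711, and for rho the corrected P-value was 0.0794. The remaining 11 pairs had corrected P-values from 0.0546 upwards.

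Whole blood holds several cell types, and in a mixed sample fewer cells of one type cannot be told apart from less RNA per cell. Marker lists were therefore averaged per pig and set beside the genes, a step that was added after the values were seen. Of the red cell list, 6 of 10 genes were in the table, namely the globin gene HBB, the globin chaperone gene AHSP, the heme synthesis gene ALAS2, the membrane genes SLC4A1 and EPB42, and the transcription factor gene KLF1. Each retained spot of HBB, AHSP and the leukocyte gene PTPRC was well above its local background on 48 of 48 arrays. The single retained spot of the adipose gene ADIPOQ was so on 46 arrays, at 2.07 times its background, and the spots of the liver gene ALB on 46 to 48, at 2.01 to 3.26 times. The red cell mean was 4.36 ± 0.45 on the LF and 4.28 ± 0.49 on the HF diet in low RFI pigs, and 4.04 ± 0.45 and 4.36 ± 0.37 in high RFI pigs (SD, n = 12 each).

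The relations of the 7 genes with 9 marker lists and with the median signal over background of the array made 70 relations, of which 23 had a corrected P-value under 0.05. ADIPOR1 followed the red cell mean most closely, with r = 0.927 and rho = 0.919. The permutation P-value was 1e-05 and 7e-05 after correction, r was 0.910 without the 2 pigs farthest from the median of the list, and within slides it ran from 0.889 to 0.977. GHR had r = 0.799 (rho = 0.769, within slides 0.881 to 0.985), ADIPOR2 had r = 0.734 (rho = 0.770, within slides 0.376 to 0.958) and UCP2 had r = 0.733 (rho = 0.734, within slides 0.551 to 0.977), with the same permutation P-values, 1e-05 before and 7e-05 after correction. Without the 2 farthest pigs they were 0.764, 0.724 and 0.709. All 6 red cell genes were positively related with each of these 4 genes, from 0.450 for SLC4A1 to 0.902 for EPB42 in the case of ADIPOR1.

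IGF2R was negative with the red cell mean, with r = -0.376 (rho = -0.371, permutation P-value 0.00806, corrected 0.0245, -0.297 without the 2 farthest pigs, within slides from -0.839 to 0.140). For IGF1R and IRS1 r was 0.212 and -0.049, with corrected P-values of 0.290 and 0.822.

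The leukocyte list, of which PTPRC, CORO1A, LCP1 and CD53 were all in the table, gave the opposite picture. Its r was -0.781 with ADIPOR1 and -0.790 with GHR (rho = -0.770 and -0.812, permutation P-values 1e-05, corrected 7e-05). Without the 2 farthest pigs these were -0.734 and -0.758, and both were negative on each of the 6 slides, up to -0.651 and -0.524. For ADIPOR2 and UCP2 it was -0.483 and -0.473 (rho = -0.485 and -0.458, permutation P-values 0.00053 and 0.00071, corrected 0.00232 and 0.00288), and -0.459 and -0.451 without the 2 farthest pigs. IGF2R was positive, with r = 0.492 (rho = 0.485, permutation P-value 0.00042, corrected 0.00196), which was 0.462 without the 2 farthest pigs and positive on each of the 6 slides. The T cell list was negative with ADIPOR1, with r = -0.684, and with GHR, with r = -0.671 (rho = -0.683 and -0.655, permutation P-values 1e-05, corrected 7e-05), and these were -0.630 and -0.618 without the 2 farthest pigs and negative on each of the 6 slides. The list of NK and cytotoxic cell genes was negative with GHR, with r = -0.588 (rho = -0.551, permutation P-value 2e-05, corrected 1.27e-04). With ADIPOR1 it had r = -0.499 (rho = -0.452, permutation P-value 0.00040, corrected 0.00196). Without the 2 farthest pigs these were -0.516 and -0.397, and both were negative on each of the 6 slides. Its members ran from GZMB, with -0.681 for GHR and -0.525 for ADIPOR1, to NCR1, with -0.016 and -0.110. The neutrophil list was positive with IGF2R, with r = 0.399 (rho = 0.391, permutation P-value 0.0050, corrected 0.0167), which was 0.419 without the 2 farthest pigs and positive on each of the 6 slides. With ADIPOR1, GHR, ADIPOR2 and UCP2, no r of the neutrophil, monocyte and B cell lists passed. The closest was GHR with the B cell list (r = -0.340, corrected 0.0533, and rho = -0.400, corrected 0.0170). ADIPOR2 and UCP2 did not pass with the T cell list (r = -0.243 and -0.325, corrected 0.226 and 0.0679). Nor did they with the NK and cytotoxic list (r = -0.234 and -0.199, corrected 0.230 and 0.324).

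Other measures moved with the same genes. The list of adipose, liver and muscle genes, with 8 of 9 in the table, had r = 0.720 with ADIPOR1 and 0.650 with GHR (rho = 0.709 and 0.613, permutation P-values 1e-05, corrected 7e-05), which were 0.693 and 0.589 without the 2 farthest pigs and ran within slides from 0.270 to 0.962 and from 0.175 to 0.957. The list was also positive with ADIPOR2, with r = 0.530 (rho = 0.528, permutation P-value 0.00013, corrected 0.00070), and with UCP2, with r = 0.560 (rho = 0.547, permutation P-value 4e-05, corrected 2.33e-04). These were 0.478 and 0.537 without the 2 farthest pigs and positive on each of the 6 slides. For IGF1R it gave the single relation that passed, with r = 0.376 (rho = 0.398, permutation P-value 0.00798, corrected 0.0245), which was 0.428 without the 2 farthest pigs and ran within slides from -0.019 to 0.763. After subtraction of the local background this r was 0.223. The members of the list went both ways. Their r with ADIPOR1 ranged from -0.373 for ACTA1 to 0.869 for CKM, the muscle creatine kinase gene, and ADIPOQ had 0.539. With GHR the members ranged from -0.324 to 0.863, with ADIPOR2 from -0.646 to 0.755 and with UCP2 from -0.356 to 0.702. The list mean was between -1.47 and -0.63 over the pigs. The median signal over background of the array was negatively related with GHR (r = -0.473, rho = -0.516, permutation P-value 0.00074, corrected 0.00288), with ADIPOR2 (r = -0.430, rho = -0.438, permutation P-value 0.00246, corrected 0.00906) and with ADIPOR1 (r = -0.412, rho = -0.432, permutation P-value 0.00365, corrected 0.0128). Without the 2 arrays farthest from the median these were -0.536, -0.357 and -0.404, and each was negative on each of the 6 slides. After subtraction of the local background by the scanner software, r with the red cell mean was 0.923 for ADIPOR1, 0.718 for GHR, 0.785 for ADIPOR2 and 0.766 for UCP2, so that it remained of similar size. For IGF2R it was -0.519, farther from 0 than before. With the adipose, liver and muscle list, r fell to 0.616 for ADIPOR1, 0.465 for GHR, 0.483 for ADIPOR2 and 0.520 for UCP2. The part of cell composition in the values of these genes was not tested.

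**Figure D4:**
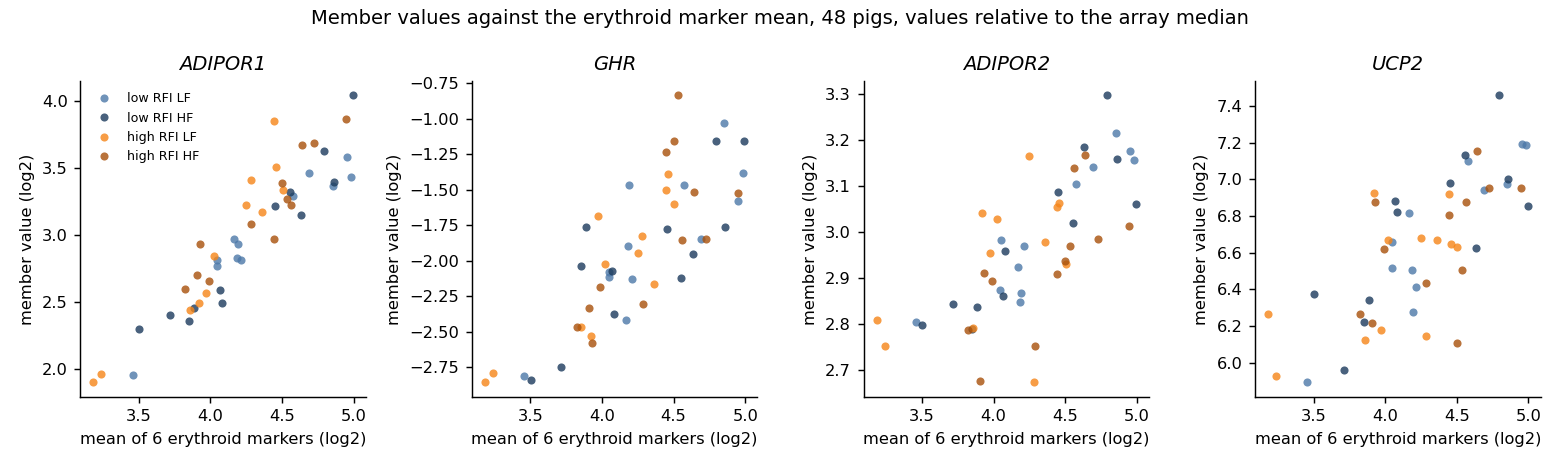
Values of ADIPOR1, GHR, ADIPOR2 and UCP2 against the mean of 6 red cell marker genes in 48 pigs, all in log2 relative to the array median, with the 4 line and diet groups in colours. Pigs of each group are spread along the same rising band, which is narrowest for ADIPOR1 (r = 0.927).

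**Figure D5:**
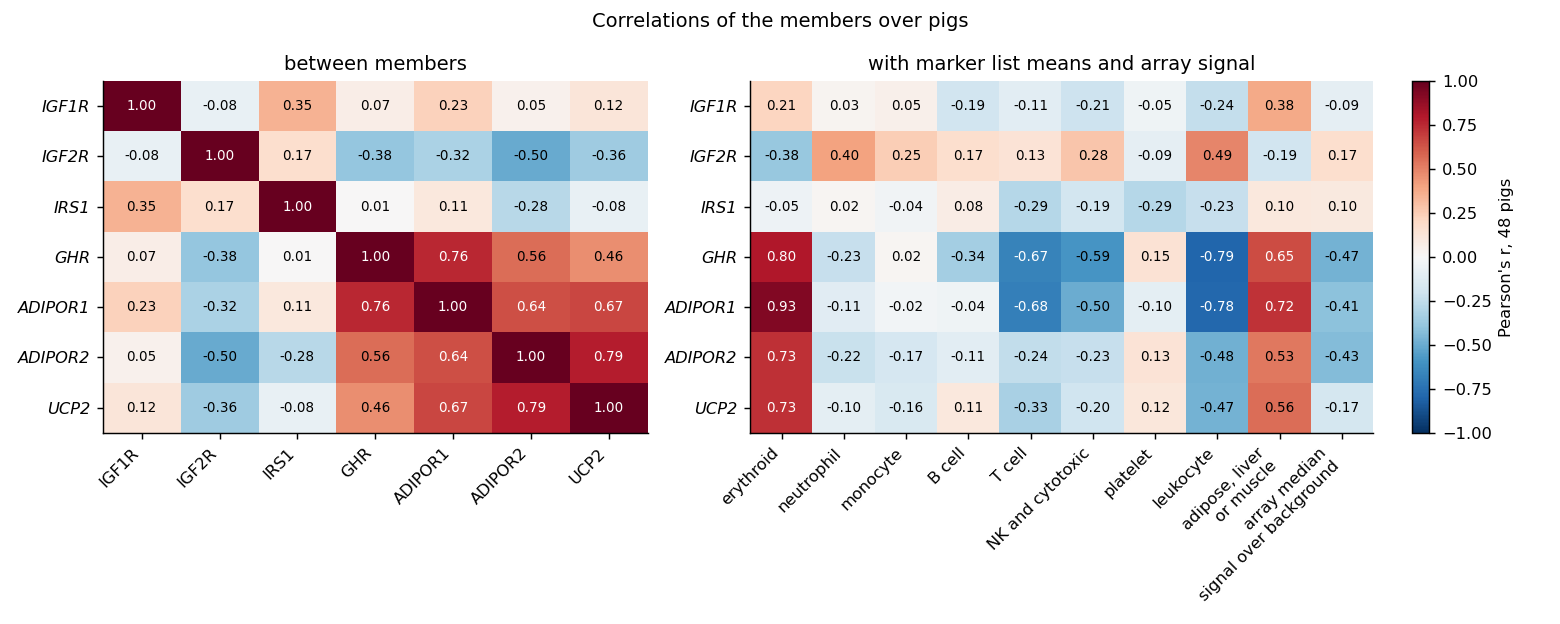
Pearson's r over 48 pigs between the 7 genes (left) and between each gene and 9 marker list means and the array median of signal over background (right), with red for positive and blue for negative values. GHR, ADIPOR1, ADIPOR2 and UCP2 form a positive block (0.46 to 0.79), and the same 4 genes have the highest values in the red cell column.

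The genes most similar to each member were sought over 24678 gene names, by Pearson's r of the deviations from the group means in 48 pigs, as a description without a test. For ADIPOR1 they were its twin spot of identical sequence, with 0.977, MXI1, a MYC antagonist, with 0.954, and RNF10, a ring finger gene, with 0.948. For GHR they were a spot named by a GenBank number, with 0.946, ARAP2 with 0.938 and the transcript cluster TC555750 with 0.935. ADIPOR2 was most similar to TFG with 0.898, TC540411 with 0.882 and MIF4GD with 0.878. UCP2 was most similar to its twin spot, with 0.957, to AK343570 with 0.831 and to LOC100521098 with 0.820. The likeness was looser for the other genes, because the highest values were 0.693 for IGF2R with TC543737, followed by TC556288 with 0.680 and RAB9A with 0.679. They were 0.662 for IGF1R with EW193217, followed by TC574488 with 0.657 and a spot named by a GenBank number with 0.642. For IRS1 they were 0.648 with TC521745, 0.644 with TC547416 and 0.633 with SLC23A2.

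Further genes of these pathways were taken from a list of 88, comprising ligands, binding proteins, docking proteins, kinases, phosphatases, STAT and SOCS genes and targets, of which 63 were in the table. Between the lines, 1 of 63 passed the adjusted P-value of 0.05 in limma, lower in low RFI pigs, and 0 were higher, a share of 1.59% beside the 2.73% of all gene names. The median line difference of the list was 0.0096, against 0.017 over all gene names, on the log2 scale. Before correction, 9 of 63 had a line P-value under 0.05, beside 11.5% of all gene names. Between the diets 0 of 63 passed, beside 0% of all, and 1 had an unadjusted P-value under 0.05, beside 1.61% of all, the adipokine gene RETN, with a difference of 0.53 (SE 0.20). For the interaction 0 of 63 passed, beside 0% of all, and 3 had an unadjusted P-value under 0.05, beside 2.25% of all.

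The gene that passed was STAT3, the transcription factor through which leptin and several cytokine receptors act. On the LF diet it ran from -1.41 over a median of -1.09 to -0.86 in low RFI pigs and from -1.18 over -0.89 to -0.72 in high RFI pigs. On the HF diet it ran from -1.37 over -1.23 to -0.80 in low RFI pigs and from -1.14 over -0.92 to -0.51 in high RFI pigs. The low RFI medians were lower with both diets, although the groups overlapped. Within a diet the line difference did not pass, with -0.16 and an adjusted P-value of 0.530 on the LF diet and -0.26 and 0.0616 on the HF diet. Over both diets STAT3 was lower by 0.21 on the log2 scale (SE 0.050, adjusted P-value 0.0085) in the low RFI line, and 21 of 24 low RFI pigs lay below the high RFI median. With slide as a block the adjusted P-value was 0.00495, and the difference was negative on 5 of the 6 slides. The brightest spot of STAT3 alone gave -0.47 (adjusted P-value 3.13e-04). Markers of blood cells also passed the test between the lines, beside the 2.73% of all gene names. Of the neutrophil list 1 of 7 genes was called (CXCR2, -0.42), of the monocyte list 1 of 6 (CD14, -0.47), of the T cell list 1 of 6 (LCK, 0.21) and of the red cell list 1 of 6 (SLC4A1, 0.26). Of the B cell list 2 of 5 were called, among them MS4A1 (-0.36). Of the adipose, liver and muscle list 1 of 8 was called (PLIN1, -0.19), whereas 0 were called in the NK and cytotoxic, platelet and leukocyte lists. In the authors' counts of blood cells, neutrophils, lymphocytes and monocytes did not differ between the lines. Their number of red cells was higher in low RFI pigs. The part of cell composition in the STAT3 difference was not tested.

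Genes next to it by P-value did not pass. PIK3R2, a regulatory subunit of PI3-kinase, had a line difference of 0.19 (SE 0.062, adjusted P-value 0.109) and IGFBP4, a binding protein of the IGFs, had 0.20 (SE 0.069, adjusted P-value 0.117). With slide as a block IGFBP4 passed, with an adjusted P-value of 0.0434, and PIK3R2 did not, with 0.0798. For PIK3R2 23 and for IGFBP4 18 of 24 low RFI pigs lay above the high RFI median.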

How the data were processed

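Whole blood RNA of 48 pigs was hybridized on single-colour Agilent arrays by the authors, who deposited the scanner files with the intensity, local background and quality calls of each spot, and a table of log2 values of 37113 retained spots. Per the labels, their analysis used R 3.0.2. On 47 arrays the deposited log2 values equalled the log2 of the median intensity minus the array median over the retained spots, without background subtraction, within 1e-05. The column of high RFI HF replicate 1 held 1 repeated value after its first 23 entries and was rebuilt from its scanner file by the same arithmetic. The table comes from 6 slides of 8 arrays, with 2 arrays of each group per slide, scanned on 3 days. The median signal over background was 5.91 to 16.0 per array, and the number of arrays limits the precision.

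Retained spots with the same upper-case gene name were averaged, which gave 26924 names. Line, diet and interaction effects, in sum-to-0 coding, were estimated with limma 3.58.1 in R 4.3.3, with empirical Bayes moderation and Benjamini-Hochberg correction over all names or all spots. The procedure was tested on simulated data. A call required an adjusted P-value under 0.05. Two-sided permutation tests of correlations used 100000 resamples in Python 3.11.15 with scipy 1.17.1. Named were the 10 members, the pathway genes that passed or, with fewer than 4, the 4 with the lowest P-values, and the 3 names most similar to each member. Some genes that this rule or the marker lists name are not reported here. RETN and the IRS2-like spot were named after their values were seen. The members and lists were chosen with earlier results of these data known. The labels do not say that pigs were kept or extracted independently of each other. The P-values treat the pigs as independent samples and hold only as far as they are. Alternatives were the analysis of variance, processed signals centred on the median or the 75th percentile, normexp with an offset of 50 and quantile normalization, other spot filters, slide or replicate block, a trended robust prior, the brightest probe, and an unadjusted P-value under 0.01 with an FC above 1.1. The column as deposited, the data without that pig, and identical sequences averaged first were added after the values were seen.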

Additional observations from a re-analysis of the deposited data

How the results depend on the processing

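The number of the 7 genes that differed was 0 for line, diet, interaction and the contrasts within each diet or line under each alternative that was run, and the same held for the 15 spots. This included all non-control spots, where INSR and LEPR were also fitted, and the unadjusted criterion of the methods.

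Among the pathway genes, 1 passed for line, and 2 did with processed signals scaled to the 75th percentile, with normexp and quantile normalization, with all non-control spots, with slide as a block and with the replicate block. The unadjusted criterion gave 5, and the column as deposited gave 0, where the STAT3 difference was -0.37 with an adjusted P-value of 0.58. IGFBP4 passed with normexp and quantile normalization (adjusted P-value 0.042), with slide as a block (0.043) and with the replicate block (0.046). Of the spots outside the table, 4 instead of 2 were detected on every array when called positive and significant. The number of correlated pairs was 12 instead of 10 with the brightest probe and without high RFI HF replicate 1.

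Signs of differences that passed no threshold changed as follows. With processed signals centred on the array median, IGF1R was -0.052 for line and 0.053 for the interaction, and ADIPOR2 was 4.5e-05 for diet. With the 75th percentile, IGF1R was -0.056 for line and 0.044 for the interaction. With normexp and quantile normalization, the interaction was 0.026 for IGF1R and 0.0044 for ADIPOR2. With all non-control spots, IGF2R was 0.030 for line, 0.084 for diet and 0.029 for the interaction, and IRS1 was 0.0018 for line and -0.020 for the interaction. With the column as deposited, the line difference was -0.17 for IGF1R and -0.15 for GHR, the diet difference 0.12 for IGF2R and -0.095 for UCP2, and the interaction -0.24 for IRS1, 0.032 for ADIPOR2 and 0.22 for UCP2. The ADIPOR2 interaction was 0.016 without high RFI HF replicate 1 and 0.018 with identical sequences averaged first. The cause was not tested.

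Equal replicate numbers were not taken as pairs, because r between the deviations exceeded 0.1 in 43 of the 72 same-numbered pairs of pigs from different groups and not in all, down to -0.626. The data give a hint of a shared component, since the median r was 0.177 for equal numbers, 0.0850 for other numbers of the same slide and -0.0358 between slides, and 22 of 48 pigs correlated best with their own number. Each slide holds 2 numbers, and the median was -0.0782 after slide means were subtracted. With the replicate block, 0 of 7 genes were called for line, diet or the interaction. Dim spots limit GHR, IRS1 and IGF1R, and also IGF2R, whose mean includes A_72_P445023 and A_72_P490952. The spots of INSR and LEPR lay near the background.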
